A study of Mus musculus with 18 samples.

Results

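Transcripts of 10 genes of the machinery that fuses secretory granules with the plasma membrane were followed in AlphaTC1 cells after knockdown of the splicing factor gene Smndc1. The genes were taken by symbol from the deposited count tables, which list 55487 genes, and each symbol matched 1 row. They are the SNARE genes Snap25, Stx1a and Vamp2, the complexin genes Cplx1 and Cplx2, the calcium sensor gene Syt7, the small GTPase genes Rab3a and Rab27a, and the Rab effector genes Rph3a and Sytl4. AlphaTC1 is a mouse tumour cell line of the glucagon-producing alpha cell, so all values come from 1 line.

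The study has 18 bulk RNA-seq libraries in 5 groups. In experiment 1, cells carried an shRNA against Smndc1 (shSmndc1, 3 libraries) or an empty vector (EV, 3 libraries), read 5 days after transduction. In experiment 2 all cells carried RIP-mCherry, the gene of a red fluorescent protein behind the rat insulin promoter: cells with the shRNA were sorted as reporter-positive (shSmndc1_RIP_pos, 4 libraries) or reporter-negative (shSmndc1_RIP_neg, 4 libraries), and cells with the empty vector formed the control (EV_RIP, 4 libraries). For experiment 2 the day of reading, and whether EV_RIP cells passed the sorter, are not stated in the labels. Nor do they say that replicates were grown apart, so the p-values below rest on a spread between libraries that may be only technical.

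Hormone granules fuse with the plasma membrane when a SNARE protein on the granule, VAMP2, zips together with syntaxin-1A and SNAP-25 on the plasma membrane. Rab3 and Rab27 GTPases and their effectors tether granules at the membrane before fusion, complexins bind the assembled SNARE bundle, and synaptotagmins such as synaptotagmin-7 make fusion respond to calcium. Neurons and endocrine cells, alpha cells among them, share this machinery, and alpha cells use it to release glucagon.

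Level values below are in CPM, that is, counts at a common library size after TMM normalisation, which corrects for composition between libraries. Total counts were 37233208 to 66676008 in shSmndc1, 40781919 to 53455167 in EV, 34045268 to 48138634 in reporter-positive cells, 8084574 to 80757285 in reporter-negative cells and 49345067 to 103048766 in EV_RIP. Smndc1 itself had 10.4, 9.52 and 10.5 CPM in shSmndc1 libraries, against 41.9, 40.2 and 35.1 CPM in EV. In experiment 2 it had 16.6, 22.4, 15.97 and 25.2 CPM in reporter-positive cells, 23.9, 43.4, 36.3 and 44.6 CPM in reporter-negative cells and 37.6, 54.9, 39.3 and 46.3 CPM in EV_RIP. Its log2 fold change was -1.94 ± 0.13 (SE; adjusted p = 0.00145, edgeR) in shSmndc1 and -1.15 ± 0.20 (SE; adjusted p = 0.00384, edgeR) in reporter-positive cells, but -0.27 ± 0.20 (SE; adjusted p = 0.378, edgeR) in reporter-negative cells, which did not pass. Reporter-negative replicates 2 and 4 lay within the EV_RIP range of Smndc1 and replicate 3 just below it, which goes against their knockdown label. Results for the libraries labelled shSmndc1_RIP_neg, called reporter-negative below, are therefore those of a sorted population in which lower Smndc1 was not shown. The glucagon gene Gcg ranked between 1 and 3 among protein-coding genes by FPKM in each group. Reporter-negative replicate 3 was the shallowest library, and replicates 2, 3 and 4 of that group had 18.6, 161 and 45.4 CPM of Rn7sk, a small RNA without a poly(A) tail, against 2.44 to 4.68 CPM in reporter-positive cells and 5.24 to 14.2 CPM in EV_RIP. In experiment 1, shSmndc1 replicate 3 had the most Rn7sk, at 8.82 CPM.

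Per unit length, the 10 genes spanned the whole range from abundant to barely detected, and their order was much the same in the 5 groups. The authors' FPKM scale divides counts by gene length. The lengths used were not checked here, and the order between genes depends on them. On this scale, EV cells held 193 ± 30.9 FPKM of Cplx1 and 137 ± 29.9 FPKM of Snap25 (SD, n = 3). Syt7 followed with 79.1 ± 3.18 FPKM and Vamp2 with 51.0 ± 9.72 FPKM. These 4 genes belong to the core of the fusion machinery, as SNAREs, complexin and calcium sensor. Rab3a stood at 34.4 ± 5.55 FPKM, Cplx2 at 20.2 ± 5.26 FPKM, Rab27a at 12.9 ± 0.576 FPKM and Stx1a at 10.1 ± 0.557 FPKM. Rph3a came next with 2.02 ± 0.785 FPKM and Sytl4 last with 0.0150 ± 0.00634 FPKM. Among neighbours in this order, Cplx1 and Snap25 overlapped between EV libraries and the other 8 pairs of neighbours did not. In shSmndc1 the order of the genes was the same, but Snap25, at 74.8 ± 13.1 FPKM, now overlapped with Syt7, at 67.7 ± 5.10 FPKM, and no longer with Cplx1, at 201 ± 65.5 FPKM. In both sorted groups Vamp2 stood above Syt7, with 55.7 ± 9.23 against 45.3 ± 7.21 FPKM in reporter-positive cells and 54.9 ± 8.54 against 39.7 ± 10.8 FPKM in reporter-negative cells (SD, n = 4), although the ranges of this pair overlapped. In EV_RIP the same pair also overlapped, with 43.2 ± 7.64 FPKM of Vamp2 and 57.9 ± 7.19 FPKM of Syt7.

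**Figure D1:**
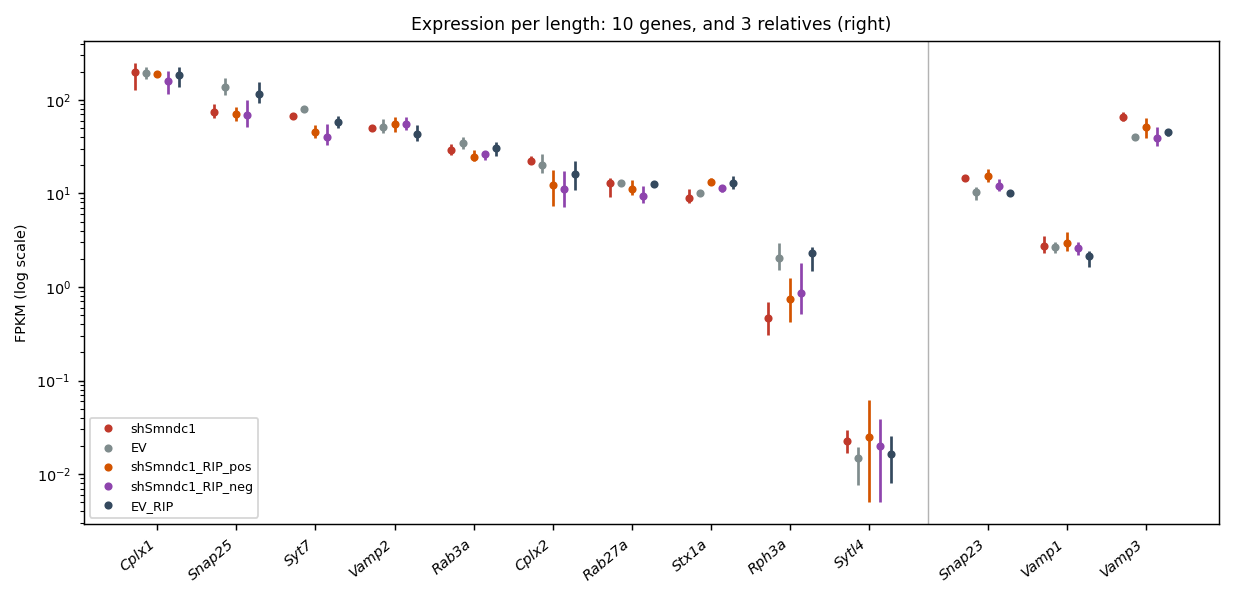
Expression per length (FPKM, log axis) of the 10 genes and of the relatives Snap23, Vamp1 and Vamp3, with the mean as a point and the lowest to highest library as a bar for shSmndc1 and EV (n = 3 each) and for the 2 sorted groups and EV_RIP (n = 4 each). A library at 0 is drawn at the lower end of the axis. Cplx1 is the most abundant gene in each group, Rph3a lies between 0.469 FPKM in shSmndc1 and 2.31 FPKM in EV_RIP, and Sytl4 is near the detection limit throughout.

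Against an empty vector control, some of the tested genes were called lower and 0 were called higher. Of the 9 that passed the filter on low counts, Snap25 and Rph3a were lower in shSmndc1 than in EV, 0 were higher and 7 did not pass, while 7.5% of the 18202 genes tested were lower and 7.22% higher (edgeR quasi-likelihood test, Benjamini-Hochberg adjusted over all genes, threshold 0.05). In reporter-positive cells the same genes, Snap25 and Rph3a, were lower than in EV_RIP and 0 were higher, where 8.92% of 18897 genes were lower and 8.47% higher. In reporter-negative cells Snap25, Rph3a and Syt7 were lower than in EV_RIP and 0 were higher, where 5.69% of genes were lower and 8.17% higher. The median log2 fold change of the 9 genes was -0.16 in shSmndc1, -0.30 in reporter-positive cells and -0.42 in reporter-negative cells, beside -0.00, 0.00 and -0.01 over all genes tested. In these comparisons 7, 6 and 8 of the 9 lay below 0. A gene that did not pass was not shown to be unchanged. In a fit of only the reporter-negative and EV_RIP libraries, Snap25, Rph3a and Syt7 did not pass, at adjusted p-values of 0.0563 to 0.0789 from edgeR. Leaving out 1 library at a time moved the share of all genes called between 0.967% and 18% in shSmndc1, 6.46% and 21.6% in reporter-positive cells and 0.821% and 29.7% in reporter-negative cells. The calls lost or gained below are to be read beside these shares, which did not always move with them. Without reporter-positive replicate 3, the reporter-negative comparison called 12.7% of all genes, against 13.9% with all libraries. The count among the 9 genes fell there from 3 to 1. Both sorted groups were set against the same EV_RIP libraries, so their results are not independent of each other. In bulk RNA, fewer cells that express a gene and less RNA per cell cannot be told apart.

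**Figure D2:**
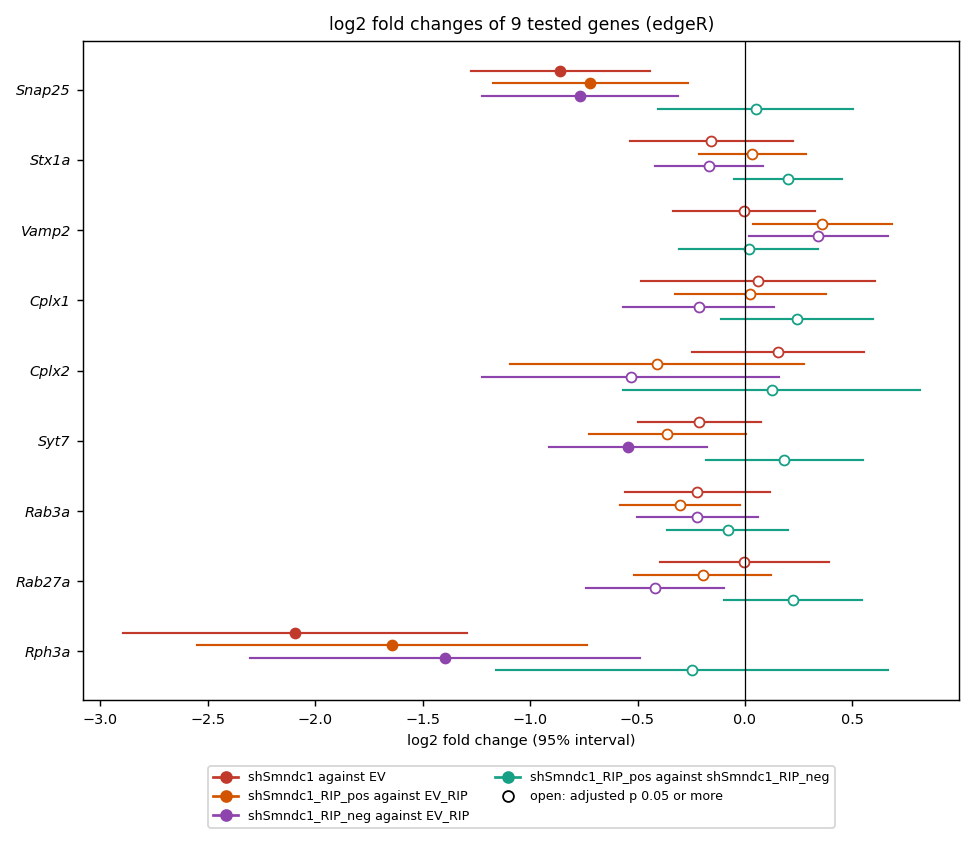
log2 fold change (x axis) of the 9 tested genes with the 95% interval, for shSmndc1 against EV, both sorted groups against EV_RIP, and reporter-positive against reporter-negative cells. Filled points have an edgeR adjusted p under 0.05. Rph3a and Snap25 lie left of 0 with filled points in the 3 comparisons with an empty vector control, at -2.09 to -1.39 and -0.86 to -0.72, and Syt7 does so in reporter-negative cells.

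Snap25 (ENSMUSG00000027273, GRCm38 chr2:136713453-136782428, + strand) encodes the plasma membrane SNARE that, unlike its partners, gives more than one helix to the fusion bundle. It had 201, 159.7 and 147 CPM in the 3 shSmndc1 libraries, against 252, 378 and 290.2 CPM in EV. All 3 knockdown libraries lay below the lowest EV library, as for 19.8% of genes (19.7% lay above), with a log2 fold change of -0.86 ± 0.18 (SE; adjusted p = 0.0200, edgeR), a level 0.551 times that of EV. In experiment 2, Snap25 had 187, 160.2, 157 and 133 CPM in reporter-positive cells, 226, 118, 157 and 115 CPM in reporter-negative cells and 209.9, 211, 279 and 349.9 CPM in EV_RIP. Reporter-positive cells did not overlap with EV_RIP, as for 23.4% of genes in either direction, whereas reporter-negative replicate 1 lay within the EV_RIP range. The log2 fold changes against EV_RIP were -0.72 ± 0.21 (SE; adjusted p = 0.0337, edgeR) in reporter-positive cells and -0.77 ± 0.21 (SE; adjusted p = 0.0313, edgeR) in reporter-negative cells. In experiment 1 the call was lost when shSmndc1 replicate 2, EV replicate 2 or EV replicate 3 was left out, at log2 fold changes of -0.90 to -0.68 (adjusted p = 0.0694 to 0.0815, edgeR). In reporter-positive cells the call was lost without EV_RIP replicates 3 or 4 or positive replicates 2, 3 or 4 (-0.72 to -0.54, adjusted p = 0.0707 to 0.0904, edgeR). In reporter-negative cells it was lost without EV_RIP replicates 1, 3 or 4 or negative replicates 2, 3 or 4 (-0.86 to -0.60, adjusted p = 0.0529 to 0.115, edgeR), and without negative replicates 3 and 4 together (-0.62, adjusted p = 0.318, edgeR).

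The partners of SNAP-25 in the fusion bundle did not pass in any comparison. Stx1a (ENSMUSG00000007207, GRCm38 chr5:135023482-135051100, + strand), which encodes the other plasma membrane SNARE, had 17.1, 17.4 and 24.9 CPM in shSmndc1, against 20.8, 22.5 and 22.8 CPM in EV. The groups overlapped, with shSmndc1 replicate 3 above all EV libraries, and the log2 fold change of -0.16 (adjusted p = 0.554, edgeR) had a 95% interval of -0.53 to 0.22. Experiment 2 gave 27.1, 28.8, 31.6 and 26.9 CPM in reporter-positive cells, 22.7, 26.3, 25.4 and 25.3 CPM in reporter-negative cells and 25.7, 33.1, 24.7 and 28.2 CPM in EV_RIP. The 3 groups lay close together, and the log2 fold changes against EV_RIP were 0.03 (adjusted p = 0.862, edgeR) in reporter-positive cells and -0.17 (adjusted p = 0.338, edgeR) in reporter-negative cells.

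Vamp2 (ENSMUSG00000020894, GRCm38 chr11:69088490-69092384, + strand), which encodes the granule SNARE, had 151, 136 and 147 CPM in shSmndc1, against 126, 175.3 and 133 CPM in EV. The knockdown libraries lay inside the EV range, with a log2 fold change of -0.00 (adjusted p = 0.987, edgeR) and a 95% interval of -0.33 to 0.33. In experiment 2 it had 145, 170.0, 188 and 129 CPM in reporter-positive cells, 138, 135, 185 and 167 CPM in reporter-negative cells and 104, 111, 123 and 154 CPM in EV_RIP. EV_RIP replicate 4 overlapped with both sorted groups, and the other 3 control libraries lay below each sorted library. The log2 fold changes against EV_RIP were 0.36 (adjusted p = 0.109, edgeR) in reporter-positive cells and 0.34 (adjusted p = 0.131, edgeR) in reporter-negative cells, neither past the threshold. Without EV_RIP replicate 4 the value in reporter-positive cells was 0.49 (adjusted p = 0.0471, edgeR), which passed.

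**Figure D3:**
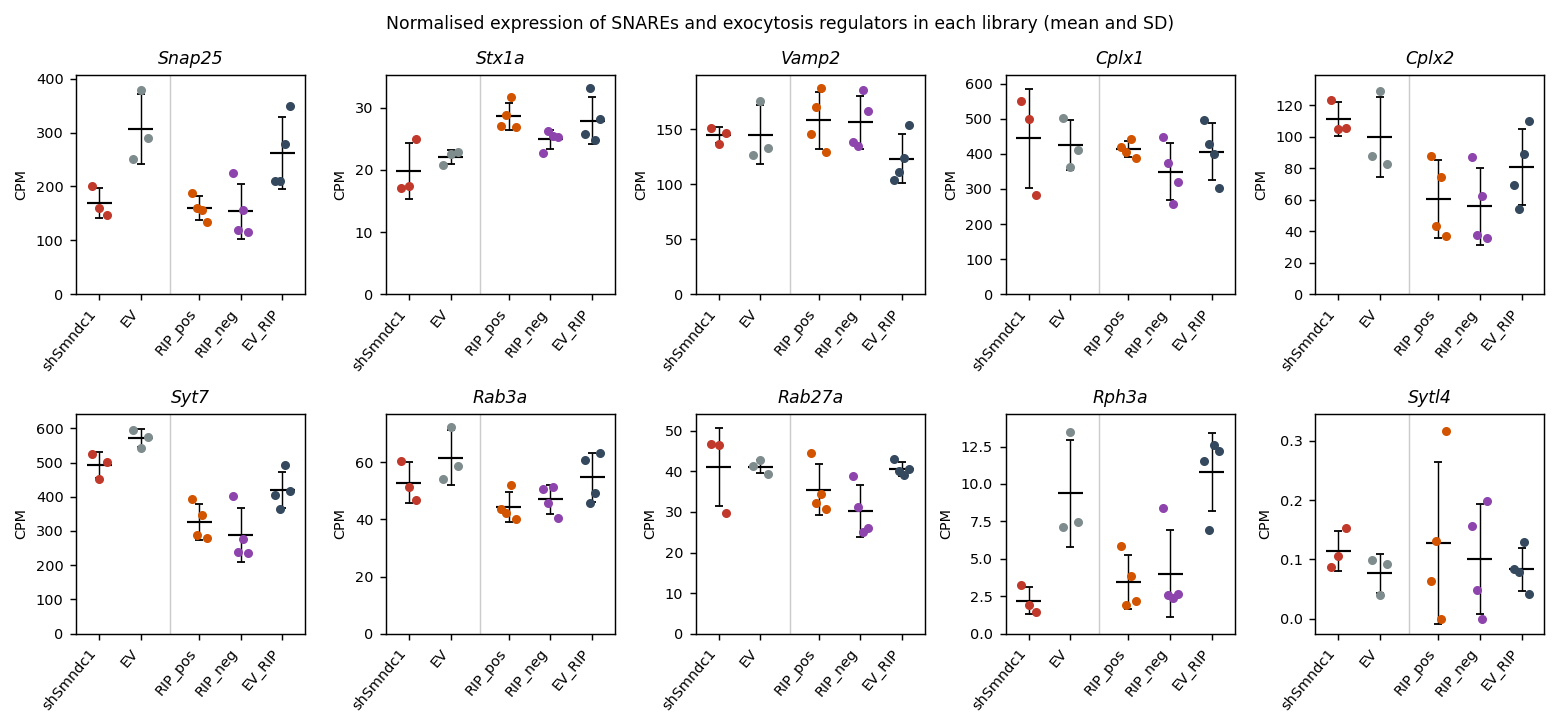
Normalised expression (CPM, linear axes) of the 10 genes in each library, with points for libraries, a horizontal line for the mean and bars for the SD, in shSmndc1 and EV (n = 3 each) and, right of the grey line, reporter-positive (RIP_pos), reporter-negative (RIP_neg) and EV_RIP libraries (n = 4 each). Snap25 and Rph3a separate shSmndc1 from EV and reporter-positive cells from EV_RIP, while Vamp2, Cplx1, Cplx2 and Rab3a overlap between each of these pairs.

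Neither complexin gene passed in any comparison. Cplx1 (ENSMUSG00000033615, GRCm38 chr5:108518554-108550024, - strand) had 549.9, 499 and 283 CPM in shSmndc1, against 502, 363 and 411 CPM in EV. The knockdown libraries were spread on both sides of EV, and shSmndc1 replicate 3 was the lowest of the 6. The log2 fold change of 0.06 (adjusted p = 0.884, edgeR) had a 95% interval of -0.48 to 0.60, which includes changes of that size in either direction. Experiment 2 gave 418, 404, 444 and 388 CPM in reporter-positive cells, 447, 375, 256 and 321 CPM in reporter-negative cells and 498, 427, 399 and 302 CPM in EV_RIP. Reporter-positive libraries lay within the EV_RIP range, and the log2 fold changes were 0.02 (adjusted p = 0.934, edgeR) in reporter-positive cells and -0.22 (adjusted p = 0.379, edgeR) in reporter-negative cells.

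Cplx2 (ENSMUSG00000025867, GRCm38 chr13:54371349-54383917, + strand) had 123, 105 and 105 CPM in shSmndc1, against 87.7, 129 and 82.9 CPM in EV, with a log2 fold change of 0.15 (adjusted p = 0.588, edgeR). In experiment 2 it had 87.9, 43.2, 74.4 and 36.6 CPM in reporter-positive cells, 87.2, 37.5, 62.6 and 35.6 CPM in reporter-negative cells and 69.3, 54.0, 88.9 and 109.6 CPM in EV_RIP. In each sorted group, replicates 2 and 4 were low and replicates 1 and 3 high, and only the low pair lay under all EV_RIP libraries. The log2 fold changes of -0.41 (adjusted p = 0.388, edgeR) and -0.53 (adjusted p = 0.263, edgeR) in reporter-positive and reporter-negative cells had 95% intervals of -1.09 to 0.28 and -1.22 to 0.16. The other complexin genes were almost silent: Cplx3 had 11 counts over the shSmndc1 libraries and 5 over EV, and Cplx4 had 1 count over shSmndc1 and 0 over EV.

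Syt7 (ENSMUSG00000024743, GRCm38 chr19:10389090-10453180, + strand), which encodes a calcium sensor with high affinity for calcium, had 526, 453 and 502 CPM in shSmndc1, against 596, 543 and 576 CPM in EV. All 3 knockdown libraries lay below EV, and with Snap25 and Rph3a this made 3 of 9 genes without overlap, beside 39.5% of genes in either direction and 19.8% in this one. The log2 fold change of -0.21 ± 0.13 (SE; adjusted p = 0.277, edgeR) did not pass. Experiment 2 gave 393, 289, 346 and 279.7 CPM in reporter-positive cells, 404, 238, 276 and 235 CPM in reporter-negative cells and 406, 366, 493 and 416 CPM in EV_RIP. Replicate 1 of each sorted group lay within the EV_RIP range, and the other sorted libraries lay below it. The log2 fold change was -0.54 ± 0.17 (SE; adjusted p = 0.0477, edgeR) in reporter-negative cells, which passed, and -0.36 ± 0.17 (SE; adjusted p = 0.150, edgeR) in reporter-positive cells, which did not. Between the sorted groups themselves Syt7 differed by a log2 fold change of 0.18 (adjusted p = 0.695, edgeR), so it was not shown to differ between them. The call in reporter-negative cells was lost when any 1 of 9 libraries was left out, namely EV_RIP replicates 1, 3 or 4, negative replicates 2, 3 or 4, or positive replicates 2, 3 or 4 (log2 fold changes of -0.56 to -0.46, adjusted p = 0.0530 to 0.158, edgeR). It was also lost without negative replicates 3 and 4 together (-0.40, adjusted p = 0.404, edgeR). Of the exonic bases of Syt7, 5.13% lie opposite Gm26859, and the strand setting of the counting is not given in the sources used here, so reads from that stretch cannot be assigned.

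The Rab GTPase genes did not pass. Rab3a (ENSMUSG00000031840, GRCm38 chr8:70754679-70758677, + strand), which encodes the main Rab of synaptic vesicles and endocrine granules, had 60.7, 51.3 and 46.9 CPM in shSmndc1, against 54.1, 72.4 and 58.6 CPM in EV, a log2 fold change of -0.22 (adjusted p = 0.339, edgeR). In experiment 2 it had 43.7, 42.2, 52.0 and 40.1 CPM in reporter-positive cells, 50.5, 45.7, 51.4 and 40.6 CPM in reporter-negative cells and 60.8, 45.6, 49.5 and 63.5 CPM in EV_RIP. The groups overlapped, and the log2 fold changes against EV_RIP were -0.30 (adjusted p = 0.120, edgeR) in reporter-positive cells and -0.22 (adjusted p = 0.252, edgeR) in reporter-negative cells.

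Rab27a (ENSMUSG00000032202, GRCm38 chr9:73044854-73097629, + strand), which encodes a Rab that brings granules to the plasma membrane, had 46.8, 46.6 and 29.9 CPM in shSmndc1, against 41.4, 42.8 and 39.5 CPM in EV. Knockdown replicates 1 and 2 lay above EV and replicate 3 below, and the log2 fold change was -0.00 (adjusted p = 0.991, edgeR). Experiment 2 gave 44.6, 32.3, 34.5 and 30.7 CPM in reporter-positive cells, 38.9, 31.4, 25.0 and 26.0 CPM in reporter-negative cells and 43.1, 40.1, 39.0 and 40.7 CPM in EV_RIP. Rab27a was the 1 gene of the 9 whose reporter-negative libraries all lay below EV_RIP, as 7.2% of genes did (7.24% lay above, 14.4% in either direction). The log2 fold change of -0.42 ± 0.15 (SE; adjusted p = 0.0732, edgeR) there did not pass, and without negative replicate 1 it was -0.57 (adjusted p = 0.00852, edgeR), which passed, in a fit that called 29.7% of all genes, against 13.9% with that library. In reporter-positive cells it was -0.20 (adjusted p = 0.371, edgeR). Of its exonic bases, 3.84% are shared with Gm27186 on the same strand, and of those of Rab3a 1.3% lie opposite Mpv17l2. The paralog Rab27b, less abundant per length at 2.78 FPKM against 12.9 FPKM of Rab27a in EV, passed in all 3 comparisons, with 14.1, 8.92 and 7.58 CPM in shSmndc1 and 18.4, 24.4 and 20.3 CPM in EV. Its log2 fold changes were -1.04 (adjusted p = 0.0230, edgeR) in shSmndc1, -1.08 (adjusted p = 0.0105, edgeR) in reporter-positive cells and -0.79 (adjusted p = 0.0445, edgeR) in reporter-negative cells.

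Rph3a showed the largest fold change of the 9 genes in each comparison with an empty vector control. Rph3a (ENSMUSG00000029608, GRCm38 chr5:120940499-121010092, - strand) encodes rabphilin-3A, an effector that binds Rab3 and Rab27 on granules and also binds SNAP-25. It had 3.21, 1.92 and 1.45 CPM in shSmndc1, against 7.12, 13.5 and 7.48 CPM in EV. The highest knockdown library held less than the lowest EV library, and the log2 fold change was -2.09 ± 0.35 (SE; adjusted p = 0.0109, edgeR), a level 0.234 times that of EV. In experiment 2 it had 5.85, 1.94, 3.82 and 2.16 CPM in reporter-positive cells, 8.40, 2.56, 2.404 and 2.66 CPM in reporter-negative cells and 11.5, 6.90, 12.6 and 12.2 CPM in EV_RIP. Reporter-positive cells lay below EV_RIP without overlap, as 11.7% of genes did, and reporter-negative replicate 1 stood apart from the other 3 and inside the EV_RIP range. The log2 fold changes were -1.64 ± 0.42 (SE; adjusted p = 0.0197, edgeR) in reporter-positive cells and -1.39 ± 0.42 (SE; adjusted p = 0.0431, edgeR) in reporter-negative cells, and the value in reporter-negative cells was -2.08 (adjusted p = 0.00138, edgeR) without negative replicate 1. Rph3a did not pass in experiment 1 without EV replicate 3 (-2.24, adjusted p = 0.0521, edgeR). In reporter-positive cells it did not pass without EV_RIP replicates 1 or 3 or positive replicates 2 or 4 (-1.59 to -1.44, adjusted p = 0.0502 to 0.0663, edgeR). In reporter-negative cells the call was lost without EV_RIP replicates 1, 3 or 4, negative replicates 2, 3 or 4, or positive replicate 3 (-1.40 to -1.20, adjusted p = 0.0543 to 0.142, edgeR), and without negative replicates 3 and 4 together (-0.9997, adjusted p = 0.380, edgeR).

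The 250 bases before a RefSeq start of Rph3a, the gene with the largest change, are shown beside those of Stx1a, a SNARE gene on the same chromosome that did not pass in any comparison. RefSeq lists 3 starts for Rph3a, 2 for Rab3a and 2 for Rab27a, and for each gene the start nearest to that in the deposited table was used and searched. Both stretches come from RefSeq on GRCm38.p6 and are written 5′ to 3′ on the strand of the gene, with any match to 1 of 4 motifs in capitals. The Rph3a stretch is chr5:121010093-121010342 (- strand) and the Stx1a stretch chr5:135023232-135023481 (+ strand).
Rph3a: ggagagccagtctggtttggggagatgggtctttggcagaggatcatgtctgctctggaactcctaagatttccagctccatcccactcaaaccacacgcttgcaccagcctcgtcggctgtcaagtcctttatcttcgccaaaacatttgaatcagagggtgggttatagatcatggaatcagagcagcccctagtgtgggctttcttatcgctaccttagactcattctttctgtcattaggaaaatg
Stx1a: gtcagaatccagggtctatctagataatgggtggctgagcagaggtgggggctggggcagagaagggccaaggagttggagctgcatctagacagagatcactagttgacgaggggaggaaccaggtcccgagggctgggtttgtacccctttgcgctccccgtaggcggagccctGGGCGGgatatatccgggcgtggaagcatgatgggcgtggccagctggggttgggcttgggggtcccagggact
The Rph3a stretch holds 48.8% G and C bases and the Stx1a stretch 62.0%. The motifs searched on both strands were GGGCGG, the GC box bound by Sp1 factors, found in 32.7% of 32851 mouse promoter windows; TATAAA, the TATA box, in 12.4%; TGACGTCA, the cAMP response element, in 1.55%; and TCAGCACC, a half-site of the REST repressor, in 1.32%. Stx1a holds 1 GC box, shown in capitals, and Rph3a holds none of these letters in this window. Of the 7 genes of the 10 found in the RefSeq table, Stx1a, Rab27a and Cplx1 hold 1 GC box each, Rab3a 2, and Rph3a, Sytl4 and Cplx2 none, and no window holds one of the other 3 motifs. The start of Cplx2 in RefSeq lies 68793 bases from the start in the deposited table.

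Sytl4 (ENSMUSG00000031255, GRCm38 chrX:133936385-133981812, - strand) encodes granuphilin, an effector of Rab27A that docks granules in pancreatic endocrine cells. It was too low to be tested: 17 counts fell on it over the 3 shSmndc1 libraries and 10 over EV, and 19 over the reporter-positive, 15 over the reporter-negative and 22 over the EV_RIP libraries. Replicate 3 of both sorted groups had 0 counts, which allows up to 0.0829 CPM in the reporter-positive and 0.371 CPM in the reporter-negative library, taking 3 counts as the limit for counting error only. Other synaptotagmin-like effector genes were better detected per length. Sytl2 averaged 7.38 ± 0.997 FPKM in shSmndc1 and 12.02 ± 4.24 FPKM in EV (SD, n = 3 each), and Sytl5 averaged 9.98 ± 1.76 FPKM in shSmndc1 and 12.6 ± 2.41 FPKM in EV. Their log2 fold changes, -0.69 (adjusted p = 0.0960, edgeR) and -0.33 (adjusted p = 0.243, edgeR), did not pass.

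None of the tested genes passed between reporter-positive and reporter-negative cells. In this comparison 0 of 9 passed with edgeR, as did 0 of 18897 genes in all (0%), although 2314 of them (12.2%) had an unadjusted p under 0.05. Of the 9, 0 had an unadjusted p under 0.05, and DESeq2 also called 0. The log2 fold changes of the 9 genes, reporter-positive over reporter-negative, lay between -0.25 for Rph3a and 0.24 for Cplx1, with 95% intervals of -1.16 to 0.66 and -0.11 to 0.59. Stx1a was the 1 gene without overlap, higher in each reporter-positive library than in each reporter-negative library, which 3.33% of genes showed (3.25% the other way, 6.58% in all), with a log2 fold change of 0.20 (adjusted p = 0.509, edgeR). Same-numbered sorted libraries deviated together, though the labels do not state that they are pairs. The 8 sorted libraries were also fitted as 4 pairs by number. This fit called 1517 of 17994 genes (8.43%, with 3.71% higher and 4.72% lower in reporter-positive cells) and 0 of the 9. In that fit the adjusted p-values from edgeR ran from 0.176 to 0.949, and 3 of the 9 had an unadjusted p under 0.05, namely Syt7, Rab27a and Cplx1. So had 36 of the 83 other exocytosis genes described below, and the share of all genes was not counted. Stx1a, Rab27a and Cplx2 were higher in the reporter-positive library of 4 of 4 pairs, Snap25, Vamp2, Syt7 and Cplx1 in 3 of 4, and Rph3a and Rab3a in 1 of 4. How many of all genes were higher in 4 of 4 pairs was not counted either.

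The difference between the effect in experiment 1 and that in reporter-positive cells was tested as an interaction over all 18 libraries. It passed for 0 of 9 genes and for 0 of 20036 genes in all (0%) with edgeR, while 861 (4.3%) had an unadjusted p under 0.05, 0 of the 9 among them. DESeq2 also called 0 of the 9. The differences lay between -0.44 on the log2 scale for Rph3a, with a 95% interval of -1.75 to 0.86, and 0.57 for Cplx2, with an interval of -0.37 to 1.52. For Snap25 the difference was -0.13, with an interval of -0.80 to 0.54.

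Libraries that were low in Snap25 were mostly low in Rph3a. After subtracting the mean of each experiment, Pearson's r between their log2 CPM was 0.92 over the 18 libraries, which share the groups, so part of it is the difference between groups itself. Syt7 followed both, with r of 0.81 to Snap25 and 0.81 to Rph3a, whereas Vamp2 had -0.15 to Snap25 and -0.33 to Rph3a, and Stx1a 0.10 and 0.03. In shSmndc1, replicate 1 was the highest of the 3 for both Snap25 and Rph3a and replicate 3 the lowest. In each sorted group replicate 1 was the highest for both.

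**Figure D4:**
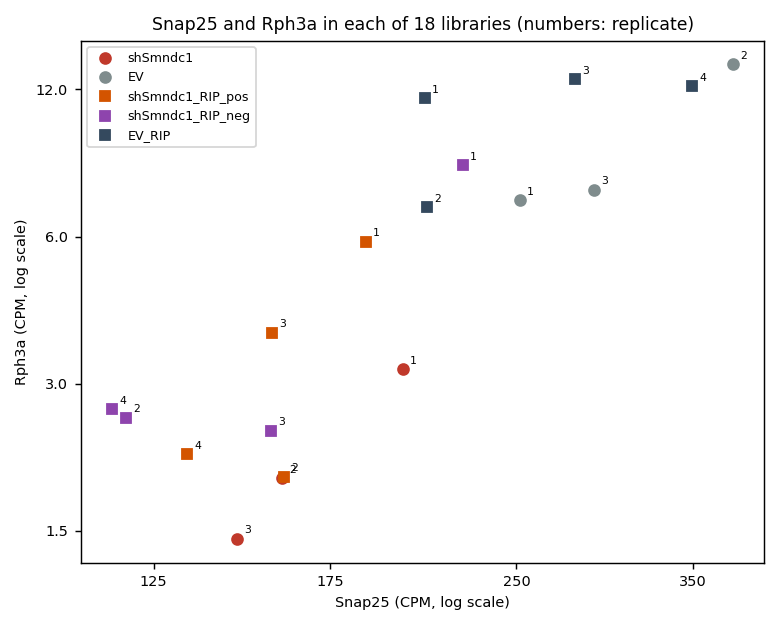
Snap25 (x axis) against Rph3a (y axis), both in CPM on log axes, in each of the 18 libraries, with the replicate number beside each point, circles for experiment 1 and squares for experiment 2. Empty vector libraries lie at the upper right, and shSmndc1, reporter-positive and reporter-negative libraries at the lower left, except for replicate 1 of the reporter-negative group, at 226 CPM of Snap25 and 8.40 CPM of Rph3a, which lies among the EV_RIP libraries.

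Within experiment 2, transcripts outside the secretory machinery differed between libraries too. The immediate-early gene Fos had 22.2, 99.8, 45.5 and 176 CPM in reporter-positive cells, 43.6, 129, 109.9 and 156 CPM in reporter-negative cells and 9.05, 12.6, 11.2 and 23.8 CPM in EV_RIP. Sorted replicate 1 was thus the lowest in Fos and the highest in Snap25, Rph3a and Syt7 in both sorted groups. In EV_RIP it was the other way for Snap25, since replicate 4 was the highest and replicate 1 the lowest in both Fos and Snap25. Reporter-negative replicate 1 also held the least Smndc1 of its group. Summed over 8 neuronal marker genes, levels were 809 to 971 CPM in reporter-positive cells, 705 to 972 CPM in reporter-negative cells and 962 to 1092 CPM in EV_RIP, and 974 to 1075 CPM in shSmndc1 against 1027 to 1118 CPM in EV. Of these 8, 1 was lower in shSmndc1, 0 in reporter-positive cells and 1 in reporter-negative cells, beside 7.5%, 8.92% and 5.69% of all genes. Of the 8, 0 were higher. Summed over 7 acinar and duct marker genes, levels were 23.7 to 34.0 CPM in shSmndc1 against 12.2 to 17.0 CPM in EV, and 35.3 to 79.6 CPM in reporter-positive cells, 20.6 to 25.2 CPM in reporter-negative cells and 10.3 to 14.8 CPM in EV_RIP, with no overlap between any of these groups and its control. Most of that difference lay in Spp1, at 14.7 CPM in shSmndc1 and 4.03 CPM in EV, and at 43.0 CPM in reporter-positive cells, 13.4 CPM in reporter-negative cells and 6.26 CPM in EV_RIP, while the acinar enzyme gene Cpa1 stayed at or under 0.208 CPM on average in each group. Another acinar enzyme gene, Cel, averaged 0.678 CPM in shSmndc1 against 0.0533 CPM in EV. In experiment 2 Cel averaged 0.498 CPM in reporter-positive and 0.763 CPM in reporter-negative cells, against 0.0945 CPM in EV_RIP. Of the 3 acinar and duct marker genes that were tested, 2 were higher in shSmndc1, 1 in reporter-positive cells and 0 in reporter-negative cells, beside 7.22%, 8.47% and 8.17% of all genes. Summed over 9 leukocyte, endothelial and fibroblast marker genes, levels were 25.7 to 29.5 CPM in shSmndc1 against 17.8 to 26.3 CPM in EV, and 21.8 to 27.8 CPM in reporter-positive cells, 22.9 to 36.6 CPM in reporter-negative cells and 16.8 to 20.4 CPM in EV_RIP, where both sorted groups lay above the control. Of the 5 tested, 2 were higher in shSmndc1, 2 in reporter-positive cells and 4 in reporter-negative cells. Over all genes, 7.22%, 8.47% and 8.17% were higher in these comparisons. The leukocyte gene Ptprc averaged at most 0.165 CPM in a group, so nearly all of these sums came from other genes of the list. Their levels are not given here, and Ptprc alone does not show that leukocyte transcripts were absent. The part of Fos and of the marker transcripts in the values of Snap25, Rph3a and Syt7 was not tested. Over all tested genes, the profiles most like that of Snap25 across the 18 libraries, by r of the same values, were those of 9330182L06Rik (0.97), Recql (0.96) and Pde4d (0.96), of which Recql shares 37.7% of its exonic bases with Pyroxd1 on the other strand. Those most like Rph3a were Gm9833 (0.98), Septin3 (0.98) and Cldn34c1 (0.98).

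Around the 10 genes, 93 further genes of the exocytosis machinery were listed, of which 83 were tested. More of them were lower than higher in each of the 3 groups set against an empty vector control: 18 lower and 3 higher in shSmndc1, 21 lower and 4 higher in reporter-positive cells, and 12 lower and 2 higher in reporter-negative cells. As shares of those tested these were 21.7%, 25.3% and 14.5% lower, beside 7.5%, 8.92% and 5.69% over all genes. The median log2 fold changes were -0.19, -0.25 and -0.15. Of these calls in shSmndc1 the count was 0 without EV replicate 3, and 6 when either shSmndc1 replicate 2 or EV replicate 2 was left out, in fits that called 0.967%, 3.39% and 2.95% of all genes, against 14.7% with all libraries. Without EV_RIP replicate 1 or positive replicate 2 the count in reporter-positive cells was 12, and it was 13 without EV_RIP replicate 3, 14 without EV_RIP replicate 4, 16 without positive replicate 3 and 15 without positive replicate 4, in fits that called 6.46% to 12.1% of all genes, against 17.4% with all libraries. In reporter-negative cells it was 1 without EV_RIP replicate 1 or negative replicates 2 or 4, 2 without negative replicate 3, 4 without EV_RIP replicate 3, 5 without EV_RIP replicate 4, 8 without positive replicate 4 and 29 without negative replicate 1. The last of these fits called 29.7% of all genes and the others 0.821% to 11.7%, against 13.9% with all libraries.

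Nsf, of the genes that disassemble used SNARE bundles, was lower in all 3 comparisons with an empty vector control, and Napb in 2 of them. Nsf, which encodes the ATPase that pulls the bundles apart, averaged 141 ± 41.5 CPM in shSmndc1 and 252 ± 18.3 CPM in EV (SD, n = 3 each), a log2 fold change of -0.84 (adjusted p = 0.0322, edgeR). Its log2 fold changes were -0.67 (adjusted p = 0.00319, edgeR) in reporter-positive and -0.37 (adjusted p = 0.0452, edgeR) in reporter-negative cells. Reporter-negative libraries overlapped with EV_RIP for Nsf. It passed there in 7 of 18 alternative fits, and not in that of only those groups. Napb, which encodes beta-SNAP, an adaptor of NSF, averaged 46.6 ± 8.31 CPM in shSmndc1 and 99.2 ± 27.1 CPM in EV, a log2 fold change of -1.09 (adjusted p = 0.0146, edgeR), with -0.65 (adjusted p = 0.0133, edgeR) in reporter-positive cells and -0.19 (adjusted p = 0.417, edgeR), which did not pass, in reporter-negative cells. Of the 11 genes for SM proteins, tomosyns and SNARE recycling, all tested, 5 were lower in shSmndc1, 5 in reporter-positive cells and 2 in reporter-negative cells, and 0 were higher. As shares, 45.5%, 45.5% and 18.2% were lower, beside 7.5%, 8.92% and 5.69% of all genes. The syntaxin-binding protein genes Stxbp2 and Stxbp4 were among those lower in shSmndc1, at -0.72 (adjusted p = 0.0225, edgeR) and -0.61 (adjusted p = 0.0242, edgeR).

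The other SNARE genes went in both directions. Of 17 tested, 4 were lower and 2 higher in shSmndc1, 5 lower and 3 higher in reporter-positive cells, and 1 lower and 0 higher in reporter-negative cells. Over all genes, 7.5%, 8.92% and 5.69% were lower in these comparisons and 7.22%, 8.47% and 8.17% higher. The 1 lower gene in reporter-negative cells, 5.88% of the list, was near the share of all genes. Vamp3, a relative of Vamp2 that serves constitutive and endosomal traffic, averaged 139.9 ± 17.1 CPM in shSmndc1 and 85.7 ± 2.99 CPM in EV, a log2 fold change of 0.71 (adjusted p = 0.0119, edgeR), and 0.18 (adjusted p = 0.465, edgeR) in reporter-positive cells, which did not pass. Snap23, the widely expressed relative of Snap25, was higher in reporter-positive cells than in EV_RIP, at 42.4 ± 6.33 and 28.3 ± 1.88 CPM (SD, n = 4 each), a log2 fold change of 0.58 (adjusted p = 0.00959, edgeR). In shSmndc1 its value was 0.50 (adjusted p = 0.0505, edgeR), which did not pass. Per length, Snap23 remained below Snap25, at 15.3 and 71.1 FPKM in reporter-positive cells. Vamp1 had 2.96 FPKM there, against 55.7 FPKM of Vamp2. The SNARE genes of endosome and trans-Golgi traffic Stx16 and Vamp4 were lower in shSmndc1, at -0.93 (adjusted p = 0.0119, edgeR) and -0.68 (adjusted p = 0.0149, edgeR), as was the plasma membrane syntaxin gene Stx4a, at -0.995 (adjusted p = 0.00836, edgeR). In reporter-positive cells Vti1a and Stx2 were lower, at -0.81 (adjusted p = 0.00165, edgeR) and -0.52 (adjusted p = 0.0128, edgeR), and in reporter-negative cells Stx16, at -0.39 (adjusted p = 0.0420, edgeR). For Stx16, reporter-negative libraries overlapped with EV_RIP. It passed there in 8 of 18 alternative fits, but not in the fit of only those groups.

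Among 14 tested genes for other synaptotagmins and calcium sensors, Syt2 was lower in all 3 comparisons with an empty vector control. It averaged 62.2 ± 7.40 CPM in shSmndc1 and 158 ± 49.7 CPM in EV, a log2 fold change of -1.35 (adjusted p = 0.00949, edgeR), and its log2 fold changes were -1.24 (adjusted p = 0.0102, edgeR) in reporter-positive and -0.88 (adjusted p = 0.0456, edgeR) in reporter-negative cells. Reporter-negative libraries overlapped with EV_RIP for Syt2. It passed there in 8 of 18 alternative fits, and not in that of only those groups. SYT2 is a fast calcium sensor of synapses. Syt2 was the 1 gene of this list that passed in shSmndc1, while Syt4 and Syt9 were also lower in reporter-positive cells, at -0.67 (adjusted p = 0.0225, edgeR) and -0.57 (adjusted p = 0.0365, edgeR), and Syt9 in reporter-negative cells, at -0.63 (adjusted p = 0.0312, edgeR). There Syt9 passed in 11 of 18 alternative fits, but not in the fit of only those groups. As shares of the list, 7.14%, 21.4% and 14.3% were lower in the 3 comparisons, beside 7.5%, 8.92% and 5.69% of all genes. Of the exonic bases of Syt4, 14.5% lie opposite Gm26658.

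Of 12 tested genes for priming and active zone proteins, Cadps, which encodes the granule priming factor CAPS-1, was lower in shSmndc1, in reporter-positive and in reporter-negative cells. Its log2 fold changes were -0.61 (adjusted p = 0.0247, edgeR), -0.84 (adjusted p = 0.00651, edgeR) and -0.72 (adjusted p = 0.0183, edgeR). For Cadps, reporter-negative libraries overlapped with EV_RIP, and it passed there in 14 of 18 alternative fits. Erc2 was also lower in shSmndc1, at -0.76 (adjusted p = 0.0191, edgeR). Unc13d, a priming factor of blood cells, was higher in reporter-negative cells at a low level, with 1.05, 3.34, 5.17 and 3.41 CPM, against 0.542, 1.84, 0.923 and 0.766 CPM in EV_RIP, a log2 fold change of 1.596 (adjusted p = 0.0406, edgeR). These groups overlapped, and Unc13d passed in 9 of 18 alternative fits, but not in the fit of only those groups.

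Of 19 tested genes for other secretory Rabs, their regulators and effectors, 4 were lower and 1 higher in shSmndc1, and 5 were lower and 1 higher in each sorted group. As shares, 21.1% were lower in shSmndc1 and 26.3% in each sorted group, beside 7.5%, 8.92% and 5.69% of all genes. The share that was higher, 5.26% in each comparison, lay under the 7.22%, 8.47% and 8.17% of all genes. Rph3al, which encodes a relative of rabphilin-3A, and Rab37 were lower in shSmndc1, at -0.78 (adjusted p = 0.0319, edgeR) and -0.63 (adjusted p = 0.0336, edgeR), in reporter-positive cells, at -0.69 (adjusted p = 0.0418, edgeR) and -0.81 (adjusted p = 0.0189, edgeR), and in reporter-negative cells, at -0.86 (adjusted p = 0.0232, edgeR) and -0.85 (adjusted p = 0.0203, edgeR). For both, reporter-negative libraries overlapped with EV_RIP. Rph3al passed there in 12 and Rab37 in 13 of 18 alternative fits. Myo5a, the motor that carries granules along actin, was lower in shSmndc1, at -0.74 (adjusted p = 0.00980, edgeR), and in reporter-positive cells, at -0.61 (adjusted p = 0.0344, edgeR). Rabif was lower in reporter-positive cells, at -0.57 (adjusted p = 0.0145, edgeR), and in reporter-negative cells, at -0.46 (adjusted p = 0.0410, edgeR), and Rab3d in reporter-negative cells, at -0.58 (adjusted p = 0.0379, edgeR). Rab3d passed there in 11 of 18 alternative fits. Sytl1, a relative of Sytl4, was higher in reporter-negative cells at a low level, with 1.23, 2.94, 3.25 and 6.47 CPM, against 0.896, 0.638, 0.761 and 0.497 CPM in EV_RIP, a log2 fold change of 2.30 (adjusted p = 0.0109, edgeR).

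All 10 genes of the exocyst, the complex that tethers vesicles to the plasma membrane, were tested. Of these, 2 were lower in shSmndc1, 2 in reporter-positive cells and 1 in reporter-negative cells, and 0 were higher. As shares, 20%, 20% and 10% were lower, beside 7.5%, 8.92% and 5.69% of all genes. Exoc4 was lower in shSmndc1, at -0.59 (adjusted p = 0.0249, edgeR), and in reporter-positive cells, at -0.69 (adjusted p = 0.00536, edgeR). Exoc6b was lower in shSmndc1, at -0.57 (adjusted p = 0.0302, edgeR), Exoc6 in reporter-positive cells, at -0.60 (adjusted p = 0.0270, edgeR), and Exoc7 in reporter-negative cells, at -0.61 (adjusted p = 0.0280, edgeR). Of the exonic bases of Exoc7, 6.71% overlap Gm26730 on the other strand. For Exoc7, reporter-negative libraries overlapped with EV_RIP, and it passed there in 12 of 18 alternative fits.

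**Figure D5:**
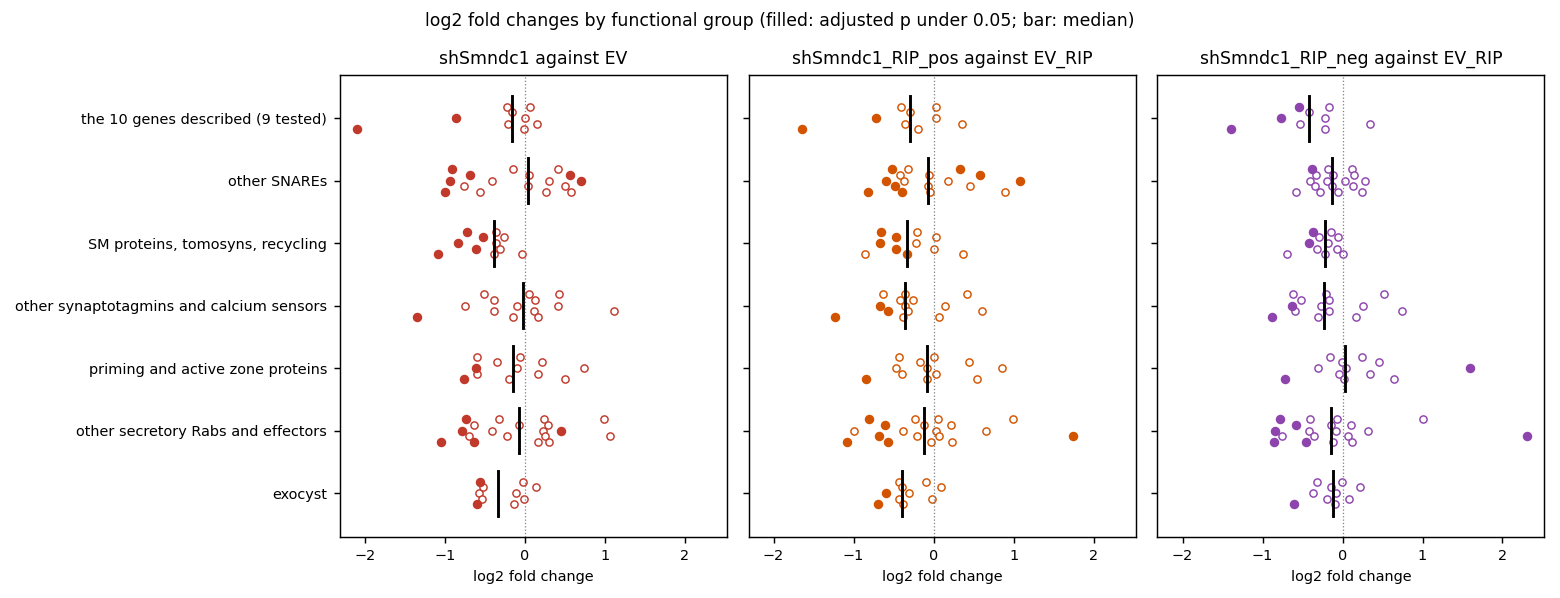
log2 fold changes (x axis) of the 9 tested genes described above and of 83 other exocytosis genes in 6 functional groups, in shSmndc1 against EV and in each sorted group against EV_RIP. Each point is a gene, filled where the edgeR adjusted p is under 0.05, and the black bar is the median of the group of genes. Genes for SM proteins, tomosyns and SNARE recycling have filled points left of 0 and none to the right, while other SNAREs have filled points on both sides in shSmndc1 and in reporter-positive cells.

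Between the sorted groups 0 of the 83 other genes passed with edgeR, 24 had an unadjusted p under 0.05, beside 12.2% of all genes, and DESeq2 called 5. The share of all genes that DESeq2 called there is not given here. The edgeR fit to the 4 pairs of sorted libraries called 20 of them, 9 higher and 11 lower in reporter-positive cells, beside 3.71% and 4.72% of all genes. Higher were Snap23 (log2 fold change 0.34, adjusted p = 0.0379) and Vamp3 (0.37, adjusted p = 0.0152), and lower were Vti1a (-0.53, adjusted p = 0.00654), Napb (-0.46, adjusted p = 0.00644) and Exoc4 (-0.69, adjusted p = 0.00171). These genes were chosen for mention in this fit after their values were seen.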

How the data were processed

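The authors deposited raw counts per gene and FPKM for each experiment. The deposited count values are whole numbers. Across libraries, the deposited FPKM values of a gene vary as its counts divided by DESeq2 size factors, to within 1e-12. This was examined in genes with counts in every library of an experiment. The gene lengths behind the FPKM values were not checked. The build was GRCm38/mm10, and tools were DESeq2 1.30.0, Picard 2.19.2 and STAR 2.7.5a, per the submitters' processing notes. No source used here names the counting program or its strand setting. Per the labels' protocols, libraries were stranded mRNA libraries.

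In R 4.3.3, genes were filtered (filterByExpr), TMM-scaled and tested with edgeR 4.0.16 (quasi-likelihood test, Benjamini-Hochberg, threshold 0.05), in 1 fit per experiment and 1 over 18 libraries for the interaction. SE is the fold change over the root of F. The edgeR fits were tested on simulated data: at 2-fold, 91 of 100 changed genes were recovered in a simulated shSmndc1 against EV (18336 genes) and 99 of 100 in reporter-positive cells against EV_RIP (18763 genes). False calls were 6 and 16. The simulation gave all genes a dispersion of 0.03, changed only genes above a minimum level and held no deviation of whole libraries. It does not measure recovery in the real libraries. Alternatives were DESeq2 1.42.0, its size factors, no filter, a replicate block, fewer groups and leaving out libraries. The labels do not say that replicate numbers pair the sorted groups. Pairing was assumed from these data, where deviations of same-numbered libraries from their group means correlated at 0.700, 0.444, 0.209 and 0.424. Exon overlaps come from GENCODE M21, where 54821 of 55487 genes have the deposited coordinates.

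Genes other than the 10 were named by a rule: per list and comparison up to 4 called genes with the smallest p, paralogs by level, and the 3 nearest profiles. The 10 genes, the lists and the rule were chosen with earlier results of these data known. Sytl2, Sytl5, Fos and Rn7sk were added after their values were seen. Some genes that the rule names are not reported here.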

Additional observations from a re-analysis of the deposited data

Results flagged for a closer look

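Of 117 groups of 4 libraries examined (the 10 genes and the other named exocytosis genes in each group of experiment 2), 9 held 1 library far from the other 3, by Dixon's criterion. Chance flags about 1 in 20 groups. In 6 of the 9, the library was reporter-negative replicate 1, and it was the highest of its group. Its Rph3a level was 8.40 CPM, where replicates 2 to 4 had 2.56, 2.404 and 2.66 CPM. The others of this library were Rph3al at 21.7 CPM, Rab37 at 91.9 CPM, Exoc6 at 29.6 CPM, Exoc7 at 213 CPM and Nsf at 229 CPM. Reporter-positive replicate 1 was the highest of its group for Cadps, at 38.6 CPM, and for Rab27b, at 10.9 CPM. Reporter-negative replicate 3, the shallowest library, was the highest of its group for Stx2, at 26.4 CPM. Without reporter-negative replicate 1, the comparison with EV_RIP called Snap25, Rph3a, Syt7 and Rab27a, and 29.7% of all genes, against 13.9% with that library.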

How the results depend on the processing

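In the comparisons where Snap25, Rph3a or Syt7 passed, their fold changes never changed sign under any alternative run. DESeq2, its size factors within edgeR and the fit with no filter on low counts kept the counts of called genes at 2 in shSmndc1, 2 in reporter-positive cells and 3 in reporter-negative cells, except that with no filter 4 were called in reporter-negative cells. Leaving out 1 library at a time moved these counts between 0 and 2 in shSmndc1, 0 and 2 in reporter-positive cells and 0 and 4 in reporter-negative cells, while all genes called ranged from 181 to 3336, 1258 to 4246 and 159 to 5831. In reporter-negative cells 0 were called with only those 2 groups in the fit and 0 without negative replicates 3 and 4, where 6 and 0 of the other exocytosis genes were called. With the replicate block, the counts were 2, 3 (Syt7 added, log2 fold change -0.38, adjusted p = 0.0423, edgeR) and 4 (Rab27a added, -0.44, adjusted p = 0.0151, edgeR), and 0 between the sorted groups. Whether control libraries pair with knockdown libraries by number was not clear: same-number correlations were -0.03, -0.02 and 0.30 in experiment 1 and -0.34 to 0.58 in experiment 2. Replicates 1 and 2 of both sorted groups correlated best with the EV_RIP library of their number, and replicates 3 and 4 did not. These best values were 0.24 and 0.50 in reporter-positive and 0.29 and 0.58 in reporter-negative cells. In experiment 1 only shSmndc1 replicate 3 correlated best with the EV library of its number. The replicate block gave 38 other exocytosis genes in reporter-positive cells (6 higher, 32 lower). Between the sorted groups, where 0 other genes were called, DESeq2 gave 5, no filter 4, the replicate block 3 and the paired fit of 8 libraries 20. The paired fit was chosen after seeing the data, and it called 8.43% of all genes. For DESeq2, no filter and the replicate block, the shares of all genes called are not given here. Their counts therefore cannot be told from a change in calls over all genes. Leaving out 1 library gave 0 to 27 other genes in shSmndc1, 12 to 32 in reporter-positive cells, 1 to 29 in reporter-negative cells and 0 to 6 between the sorted groups. The cause of these shifts was not tested.

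Of the fold changes of the 10 genes, 35 values under an alternative had the opposite sign, all in comparisons where the gene did not pass. Leaving out 1 library, log2 fold changes ranged from -0.124 to 0.298 for Cplx1, -0.108 to 0.177 for Rab27a and -0.107 to 0.153 for Vamp2 in shSmndc1 against EV. In reporter-positive cells against EV_RIP they ranged from -0.0880 to 0.153 for Cplx1 and -0.0237 to 0.138 for Stx1a. Between the sorted groups they ranged from -0.639 to 0.444 for Rph3a, -0.0661 to 0.306 for Snap25, -0.113 to 0.448 for Cplx2 and -0.0727 to 0.109 for Vamp2. For the interaction they ranged from -0.146 to 0.302 for Cplx1, -0.0371 to 0.224 for Rab3a and -0.298 to 0.0524 for Snap25. With the replicate block, Cplx1 had -0.0213 in the interaction and Vamp2 0.0103 in shSmndc1 against EV. With no filter, Cplx1 had -0.0248 and Stx1a -0.0171 in reporter-positive cells. Without negative replicates 3 and 4, Cplx1 had 0.00712 in reporter-negative cells against EV_RIP, and between the sorted groups Snap25 had -0.111 and Cplx2 -0.0397.

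Sytl4 was too low to be tested. Reporter-negative replicate 3 holds the fewest counts, 8084574, and without it 1094 genes were called in all, against 2620 with it.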
